A study of Mus musculus with 10 samples.

Results

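The genes described here encode 9 targets of drugs that open the airways or calm airway inflammation: the receptors Adrb1, Chrm1, Chrm2, Chrm3 and Adora2b and the cyclic nucleotide phosphodiesterases Pde4a, Pde4b, Pde4d and Pde3a. They were taken by symbol from the deposited expression table, in which all 9 of the 9 symbols were found among 24394 gene symbols, and each was read both row by row and as a total over the rows of its symbol. RNA-seq had been performed on lung tissue of adult female BALB/c mice. Saline mice (n = 3) were controls that received saline only. OVA mice (n = 3) were sensitized with ovalbumin and alum by injection and then challenged with ovalbumin through the nose, a protocol that provokes allergic airway inflammation and serves as a model of asthma, and Herb mice (n = 4) went through the same ovalbumin protocol and were given the extract made with ethanol from Descurainia sophia seeds. Whole lung was sequenced, so fewer cells of a type cannot be told apart from less RNA per cell.

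Airway tone is set by opposing signals. Noradrenaline and adrenaline act through beta-adrenergic receptors on Gs, adenylyl cyclase and cyclic AMP and relax smooth muscle, while acetylcholine from parasympathetic nerves contracts it through the Gq-coupled M3 receptor, and the Gi-coupled M2 receptor lowers cyclic AMP and restrains further acetylcholine release from nerve endings. Phosphodiesterases of the PDE3 and PDE4 families break cyclic AMP down, PDE4B being the main form in many leukocytes, and PDE4 inhibitors are given against airway inflammation. The A2B adenosine receptor, coupled to Gs, responds to the high adenosine levels of injured or inflamed tissue.

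Values are FPKM, the fragments of a transcript divided by its length and by the mapped fragments of the library, so levels may be compared between genes. FPKM share out the fragments of a library, and the libraries differed in composition. Rows with a RefSeq messenger RNA identifier (NM_), called messenger RNA rows here, took 18.5% to 21.3% of the summed FPKM in Saline, 3.36% to 4.68% in OVA and 8.44% to 13.6% in Herb. The sum also covers 31605 assembled rows without a symbol, which entered no gene sum. These need not be the shares of all messenger RNA. Rn45s, the precursor of ribosomal RNA, was listed at 1201 to 1386 FPKM in Saline, 10014 to 13531 in OVA and 3230 to 7019 in Herb. The 75th percentile of the gene levels was 6.50 to 6.61 FPKM in Saline, 2.78 to 3.46 in OVA and 4.40 to 5.54 in Herb. The median log2 fold change of all 16075 gene sums tested was accordingly -0.46 in OVA vs. Saline, 0.33 in Herb vs. OVA and -0.13 in Herb vs. Saline, and it was 0.07, 0 and 0.07 after each library had been rescaled to a common 75th percentile. Fold changes on both scales are therefore given for the members in OVA vs. Saline, with the term rescaled for the latter. The estimated depth was 14700000 to 29400000 mapped fragments per library. A call means an adjusted p under 0.05 in limma, with the Benjamini-Hochberg adjustment over all genes tested, and fold changes are on log2(FPKM + 1), which understates changes of low genes. The numbers after ± are SDs for levels and SEs for fold changes. The p-values rest on the spread between mice.

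Upstream sequences are shown for the 4 members that passed the test on either scale in OVA vs. Saline, so that the regions that start their main transcripts can be seen beside the values. Each run holds the 250 bases before a RefSeq start site on GRCm38.p6, read 5′ to 3′ on the strand of the gene, which is the plus strand in all 4. Capitals mark GC boxes, the binding letters of Sp1-type factors (GGGCGG or its reverse complement), and the short cyclic AMP response element (TGACG or its reverse complement), which is also contained in the full element TGACGTCA. Overlapping matches were each counted.
Adrb1: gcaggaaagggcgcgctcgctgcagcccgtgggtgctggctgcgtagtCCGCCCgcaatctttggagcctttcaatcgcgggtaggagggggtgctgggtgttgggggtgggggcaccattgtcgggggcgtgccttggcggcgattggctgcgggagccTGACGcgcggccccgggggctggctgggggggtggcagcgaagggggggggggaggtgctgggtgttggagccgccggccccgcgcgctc
Chrm2: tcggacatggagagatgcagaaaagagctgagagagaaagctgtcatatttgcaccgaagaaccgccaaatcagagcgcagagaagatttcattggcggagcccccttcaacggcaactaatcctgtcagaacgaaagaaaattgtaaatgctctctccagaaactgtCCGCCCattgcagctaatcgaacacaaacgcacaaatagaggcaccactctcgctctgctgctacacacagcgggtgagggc
Pde4a: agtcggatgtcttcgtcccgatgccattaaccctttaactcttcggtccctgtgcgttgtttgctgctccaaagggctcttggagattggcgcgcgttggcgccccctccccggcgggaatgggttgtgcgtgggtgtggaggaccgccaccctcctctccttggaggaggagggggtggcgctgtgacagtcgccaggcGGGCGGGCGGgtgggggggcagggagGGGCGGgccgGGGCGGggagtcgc
Pde4b: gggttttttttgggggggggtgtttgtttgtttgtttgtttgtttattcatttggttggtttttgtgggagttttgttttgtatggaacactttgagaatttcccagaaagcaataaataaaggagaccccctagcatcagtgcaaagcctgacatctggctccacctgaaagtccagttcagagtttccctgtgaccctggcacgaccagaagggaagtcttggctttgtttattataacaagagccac
The Adrb1 window lies at chr19:56721867-56722116, outside annotated exons, has a GC content of 74% and holds 1 GC box and 1 short response element. The Chrm2 window lies at chr6:36387834-36388083, where it overlaps an exon of the neighbouring non-coding gene 9330158H04Rik, and has a GC content of 50% and 1 GC box. The Pde4a window at chr9:21165464-21165713 precedes the start of NM_183408, with a GC content of 68.8% and 4 GC boxes, a pair of which overlap. The Pde4b window at chr4:102569810-102570059 precedes the start of NM_001177980, lies in an intron of the longer Pde4b transcripts, has a GC content of 43.2% and holds none of these letters. RefSeq gave 12 such windows for 7 of the 9 members. Among them 0 held the full response element, which 1.55% of all 32817 mouse promoter windows of this length hold, 3 held the short one (17.7% of all windows), 5 held a GC box (32.7%) and 0 held a CArG box, the letters bound by serum response factor in smooth muscle genes (1.47%). These matches describe letters only.

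Of the 9 members, 8 passed the filter of a mean of at least 0.1 FPKM. Pde4b was the highest, with a mean of 17.2 ± 5.9 FPKM in Saline, followed by Adrb1 at 5.73 ± 1.14, Adora2b at 3.14 ± 0.813, Chrm2 at 2.1 ± 0.568 and Pde4a at 1.79 ± 0.462 (n = 3 each). Pde3a at 0.686 ± 0.0636, Chrm3 at 0.589 ± 0.142 and Chrm1 at 0.13 ± 0.0688 FPKM were low. The Saline range of Chrm2 overlapped those of Adora2b and Pde4a, and the range of Pde3a that of Chrm3, so that these neighbours did not differ beyond their spread, whereas the ranges of Pde4b, Adrb1 and Chrm1 were apart from those of all other members. Pde4d was listed at 0 in all libraries.

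**Figure D1:**
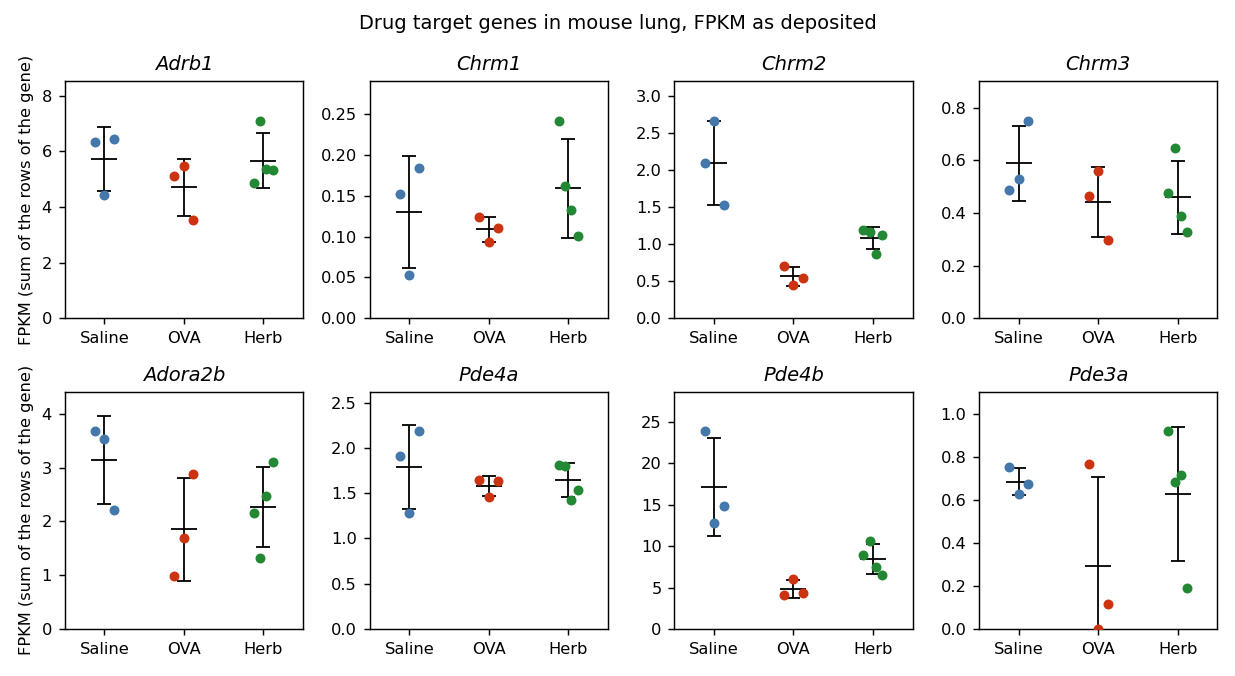
FPKM as deposited of 8 target genes in each lung library (vertical axes, from 0, differ between genes) for Saline, OVA and Herb mice. Points are mice and bars the mean ± SD. Chrm2 and Pde4b were the genes in which all OVA mice sat below all Saline mice, with Herb mice between them.

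**Figure D2:**
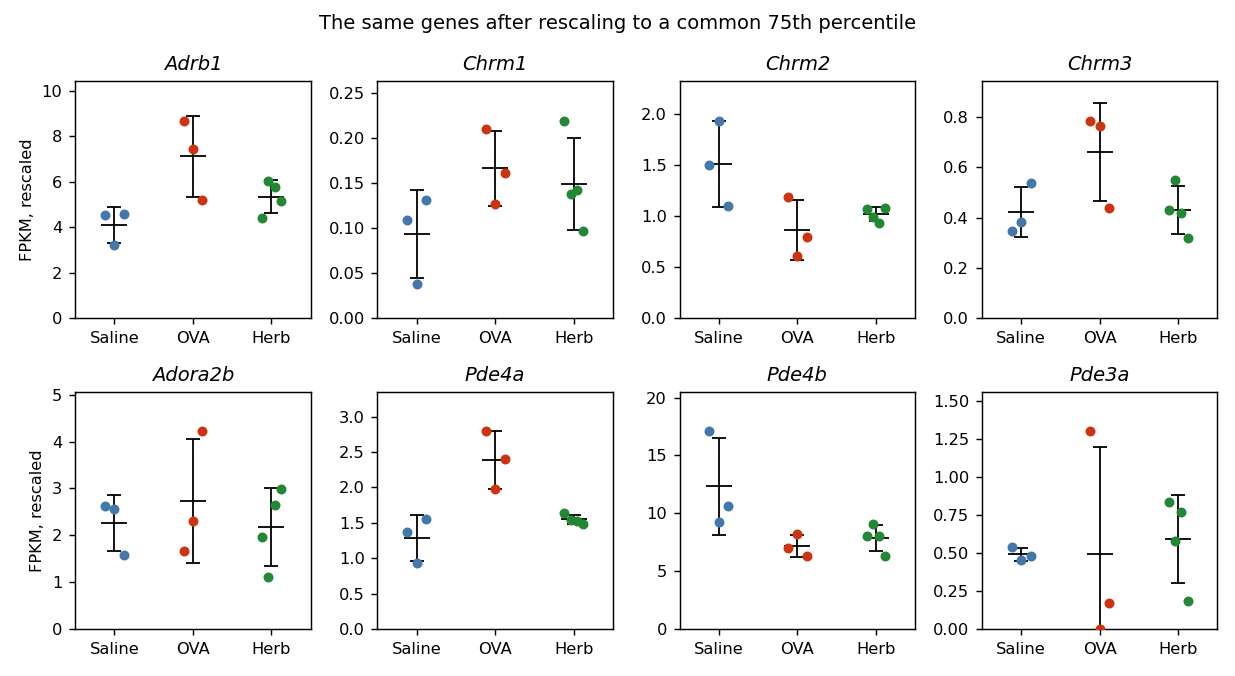
The same genes after each library was rescaled to a common 75th percentile, in rescaled FPKM (vertical axes, from 0, differ between genes), with points for mice and bars for the mean ± SD, cut at 0. All OVA mice sat above all Saline mice for Adrb1 and Pde4a and below them for Pde4b, and the Chrm2 groups overlapped.

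The beta-1 adrenergic receptor Adrb1 (gene ID 11554, chromosome 19, 56722117 to 56725150) is the beta receptor of heart muscle and is also made in the lung, where it is the off-target of inhaled beta agonists. Its level was 6.33, 4.42 and 6.43 FPKM in Saline, 5.11, 5.48 and 3.55 in OVA and 4.86, 7.11, 5.38 and 5.32 in Herb. The groups overlapped in every comparison. The log2 fold change was -0.24 ± 0.19 in OVA vs. Saline (limma adjusted p = 0.346), 0.23 ± 0.18 in Herb vs. OVA (limma adjusted p = 0.367) and -0.01 ± 0.18 in Herb vs. Saline (limma adjusted p = 0.978). After rescaling the values were 4.53, 3.20 and 4.59 in Saline, 8.69, 7.46 and 5.19 in OVA and 4.40, 6.05, 5.76 and 5.14 in Herb. All OVA libraries were then above all Saline libraries, and Adrb1 rose by a log2 fold change of 0.65 ± 0.19 (limma adjusted p = 0.0281), a mean 1.73 times as high. The call was lost without Saline replicate 2 (adjusted p = 0.0951), OVA replicate 1 (0.0815) or OVA replicate 2 (0.0693), and held with quantile normalization (0.0305). In Herb vs. OVA the rescaled change was -0.34 ± 0.18 (limma adjusted p = 0.289).

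The muscarinic receptor Chrm2 (row NM_203491, chromosome 6, 36388084 to 36528414), encoding the M2 receptor of nerve endings, smooth muscle and heart, had the clearest differences of the receptors as deposited. It was at 2.1, 2.67 and 1.54 FPKM in Saline, 0.701, 0.452 and 0.541 in OVA and 1.19, 1.16, 0.872 and 1.12 in Herb. Every OVA library lay below every Herb library and every Herb library below every Saline library. Chrm2 fell in OVA vs. Saline by 0.97 ± 0.15 on the log2 scale (limma adjusted p = 0.000665), to a mean 0.268 times that of Saline. It rose in Herb vs. OVA by 0.41 ± 0.14 (limma adjusted p = 0.0494), to 1.92 times the OVA mean, and it was lower in Herb than in Saline by -0.56 ± 0.14 (limma adjusted p = 0.0272), at 0.516 times the Saline mean. The Herb vs. OVA call was lost without a filter on low genes (adjusted p = 0.0733), with a minimum of 1 FPKM (0.0505), and without Saline replicate 1, any OVA library or Herb replicate 1, 2 or 4 (0.0668 to 0.136). The Herb vs. Saline call was lost without Saline replicate 1 or 2 or Herb replicate 3 or 4 (0.0589 to 0.0894).

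After rescaling, Chrm2 was at 1.5, 1.94 and 1.1 in Saline, 1.19, 0.615 and 0.793 in OVA and 1.08, 0.989, 0.935 and 1.08 in Herb. OVA replicate 1 then reached into the Saline range, while all Herb libraries stayed below it. The fold change was -0.43 ± 0.15 in OVA vs. Saline (limma adjusted p = 0.057), 0.13 ± 0.14 in Herb vs. OVA (limma adjusted p = 0.63) and -0.30 ± 0.14 in Herb vs. Saline (limma adjusted p = 0.198), and no comparison passed the test. The OVA vs. Saline value passed it without Saline replicate 3 (adjusted p = 0.0345) or OVA replicate 1 (0.0289), and with quantile normalization (-0.60, adjusted p = 0.0235). Muscle markers were looked at beside Chrm2. The 8 cardiac-type markers, none of them at 0 in all libraries, summed to 6.69 to 59.6 FPKM in Saline, 6.91 to 10.5 in OVA and 7.01 to 24.6 in Herb. In OVA vs. Saline 2 of the 8 were called lower as deposited and 0 higher, and after rescaling 2 were called lower and 2 higher. The 7 smooth muscle markers summed to 30.1 to 39.6, 32.1 to 46.6 and 38.2 to 70.3 FPKM. The smooth muscle sums of Saline and OVA overlapped. In OVA vs. Saline 0 of 7 markers passed the test as deposited and 4 were called higher after rescaling. The part of smooth muscle or of cardiac-type tissue in the Chrm2 levels was not tested. The 4 neuronal markers were near 0, at 0 to 0.273 FPKM in all libraries.

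The other receptors showed no call on either of these scales. Chrm3 (row NM_033269, chromosome 13, 9875486 to 10360844), the M3 receptor through which acetylcholine contracts airway muscle, was at 0.486, 0.529 and 0.752 FPKM in Saline, 0.463, 0.561 and 0.299 in OVA and 0.474, 0.649, 0.39 and 0.329 in Herb. These groups overlapped. Its change in OVA vs. Saline was -0.14 ± 0.11 (limma adjusted p = 0.337) as deposited and 0.22 ± 0.11 (limma adjusted p = 0.144) rescaled. Chrm1 (chromosome 19, 8664005 to 8683606), the M1 receptor found mainly on neurons and glands, was near the detection limit, at 0.0525 to 0.184 FPKM in Saline, 0.093 to 0.124 in OVA and 0.1 to 0.242 in Herb. Its change in OVA vs. Saline was -0.03 ± 0.07 (limma adjusted p = 0.787) as deposited and 0.09 ± 0.06 (limma adjusted p = 0.264) rescaled. In most libraries all of this came from NM_001112697, but in Saline replicate 2 that row was listed at 0 and NM_007698 held 4.67 estimated fragments. Adora2b (row NM_007413, chromosome 11, 62248984 to 62266453), the A2B receptor, was at 3.68, 3.54 and 2.20 FPKM in Saline, 0.984, 1.69 and 2.88 in OVA and 2.16, 1.31, 2.47 and 3.09 in Herb. It was low in OVA replicate 1 and within the Saline range in OVA replicate 3. The change in OVA vs. Saline was -0.57 ± 0.29 (limma adjusted p = 0.133) as deposited and 0.16 ± 0.30 (limma adjusted p = 0.723) rescaled, and without OVA replicate 3 the deposited values gave -0.82 (adjusted p = 0.0427).

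Pde4b (chromosome 4, 5 rows) was the most abundant member and was lower in OVA than in Saline. It was at 23.9, 12.8 and 14.9 FPKM in Saline, 4.13, 6.02 and 4.33 in OVA and 8.89, 10.7, 7.52 and 6.55 in Herb. The 3 groups did not overlap, with Herb between OVA and Saline. Pde4b fell by 1.61 ± 0.25 on the log2 scale in OVA vs. Saline (limma adjusted p = 0.00073), to 0.281 times the Saline mean, and was lower in Herb than in Saline by -0.92 ± 0.23 (limma adjusted p = 0.0289), at 0.49 times its mean. The difference between Herb and OVA, 0.69 ± 0.23, just missed the threshold (limma adjusted p = 0.0519), although the Herb mean was 1.74 times as high and all 4 Herb libraries were above all OVA libraries. It passed with a pseudocount of 0.1 FPKM (adjusted p = 0.0439), with a minimum of 1 FPKM (0.0406), with only those groups in the fit (0.0454), and without Saline replicate 1 or 2, OVA replicate 2 or Herb replicate 4 (0.0311 to 0.0482). The Herb vs. Saline call was lost without any Saline library or without Herb replicate 1, 3 or 4 (0.0521 to 0.0835).

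After rescaling, Pde4b was at 17.1, 9.25 and 10.6 in Saline, 7.02, 8.2 and 6.34 in OVA and 8.04, 9.08, 8.06 and 6.33 in Herb. OVA and Herb libraries then intermingled, and all of them remained below Saline. The OVA vs. Saline change was -0.66 ± 0.21 (limma adjusted p = 0.0391), at 0.583 times the Saline mean. This call was lost without Saline replicate 1 (-0.42, adjusted p = 0.0952) or 3 (0.0605), OVA replicate 1 (0.0836) or 3 (0.103), or Herb replicate 1 (0.0566) or 3 (0.0552), and with quantile normalization (-0.47, adjusted p = 0.109). The rescaled change was 0.11 ± 0.20 in Herb vs. OVA (limma adjusted p = 0.767) and -0.55 ± 0.20 in Herb vs. Saline (limma adjusted p = 0.107). Leukocyte markers were looked at beside Pde4b. The 4 neutrophil markers summed to 31.6 to 440 FPKM in Saline, 3.37 to 5.14 in OVA and 12.2 to 106 in Herb, the 5 T cell markers to 10.7 to 16.9, 2.9 to 5.004 and 5.17 to 11.5, and the 5 macrophage markers to 26.7 to 43.8, 13.6 to 26.8 and 33.1 to 42.2 FPKM. As deposited, 2 of 4 neutrophil, 4 of 5 T cell and 1 of the 4 macrophage markers tested were called lower in OVA vs. Saline, and 0, 1 and 0 after rescaling. Rescaled, the macrophage sums were 19.1 to 31.8 in Saline and 23.1 to 36.5 in OVA and thus overlapped. The neutrophil and T cell sums stayed lower in all OVA than in all Saline libraries. The 4 eosinophil markers summed to 3.07 to 4.49 FPKM in Saline, 1.6 to 3.24 in OVA and 1.79 to 4.23 in Herb, and of the 3 tested 1 was called higher and 1 lower in OVA vs. Saline on both scales. None of these markers was at 0 in all libraries, and their part in the Pde4b result was not tested. In lavage fluid, which is not whole lung, the study counted more neutrophils, macrophages and eosinophils in OVA than in Saline mice. In stained lung sections, too, it described more immune cells around vessels in OVA than in Saline mice, and fewer in Herb mice. The neutrophil and T cell marker sums ran the other way.

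The decrease of Pde4b lay in its main transcript. NM_001177980 (chromosome 4, 102570095 to 102605847), which starts just after the upstream window shown above, held 91.5% of the FPKM of the gene. It was at 22.9, 11.99 and 14.6 FPKM in Saline, 3.75, 5.27 and 3.54 in OVA and 8.31, 9.41, 6.46 and 4.995 in Herb, where the lowest Herb library was below the highest OVA library. It fell by 1.72 ± 0.28 on the log2 scale in OVA vs. Saline (limma over single rows, adjusted p = 0.00143), and also after rescaling (-0.84 ± 0.24, limma adjusted p = 0.0397). Herb vs. Saline gave -1.06 ± 0.26 (limma adjusted p = 0.0382) and Herb vs. OVA 0.66 ± 0.26 (limma adjusted p = 0.115).

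NM_001177981 (chromosome 4, 102589723 to 102605861), which starts further downstream, was at 0.199, 0.197 and 0.131 FPKM in Saline, 0.169, 0.258 and 0.274 in OVA and 0.427, 0.438, 0.499 and 1.29 in Herb. All Herb libraries were above all others, and 15.9 to 61.9 estimated fragments stood behind the Herb values, compared with 6.64 to 14.7 in the other libraries. Its change of 0.47 ± 0.17 in Herb vs. Saline did not pass the test (limma adjusted p = 0.106), nor did that of 0.40 ± 0.17 in Herb vs. OVA (limma adjusted p = 0.133). Within Pde4b, NM_001177980 made up 95.8% ± 1.87 in Saline, 86.7% ± 4.56 in OVA (n = 3 each) and 85.9% ± 7.20 in Herb (n = 4), and NM_001177981 1.09% ± 0.397, 4.90% ± 1.24 and 8.79% ± 7.30. Such shares do not depend on how a library is scaled. The share of NM_001177980 was lower in all OVA libraries than in all Saline libraries (two-sided exact permutation test, p = 0.1, the smallest possible with 3 against 3, adjusted p = 0.15 over 6 tests) and lower in all Herb than in all Saline libraries (exact permutation test, p = 0.057, the smallest possible with 3 against 4, adjusted p = 0.15). These tests cannot reach 0.05. The rows NM_001177982, NM_001177983 and NM_019840 held 1.35%, 2.62% and 0.687% of the FPKM of the gene.

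**Figure D3:**
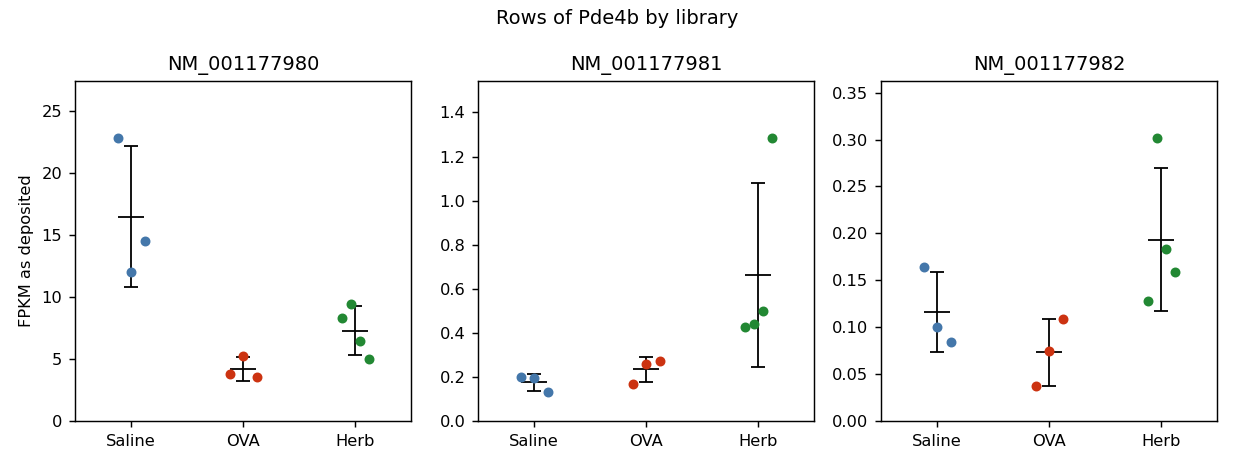
FPKM as deposited of 3 transcript rows of Pde4b in each library (vertical axes, from 0, differ between rows), with points for mice and bars for the mean ± SD in Saline, OVA and Herb. NM_001177980 held 91.5% of the gene and fell in OVA, whereas NM_001177981 was highest in Herb, where replicate 4 stood at 1.29 FPKM.

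Pde4a (chromosome 9, 2 rows), a cyclic AMP phosphodiesterase of the same family, differed little on the deposited scale. It was at 1.91, 1.28 and 2.18 FPKM in Saline, 1.65, 1.45 and 1.64 in OVA and 1.81, 1.80, 1.43 and 1.54 in Herb, and the OVA libraries lay inside the Saline range. The change in OVA vs. Saline was -0.10 ± 0.14 (limma adjusted p = 0.593). After rescaling it was at 1.37, 0.931 and 1.56 in Saline, 2.80, 1.98 and 2.40 in OVA and 1.64, 1.54, 1.53 and 1.49 in Herb, with all OVA libraries above all Saline and all Herb libraries. Relative to the 75th percentile Pde4a rose in OVA vs. Saline by 0.57 ± 0.14 (limma adjusted p = 0.0125), 1.86 times the Saline mean, a call that held without each of the 10 libraries in turn (adjusted p = 0.0117 to 0.043) and was lost with quantile normalization (0.40, adjusted p = 0.054). The rescaled change in Herb vs. OVA was -0.41 ± 0.13 (limma adjusted p = 0.119), and that in Herb vs. Saline 0.17 ± 0.13 (limma adjusted p = 0.422). Most of Pde4a, 92.3%, was NM_183408 (chromosome 9, 21165714 to 21213248), whose rescaled change in OVA vs. Saline, 0.43 ± 0.17, did not pass the test alone (limma over single rows, adjusted p = 0.106). The other row, NM_019798, reached 0.56 FPKM in OVA replicate 3 and was at most 0.182 FPKM elsewhere.

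Pde3a (row NM_018779, chromosome 6, 141249269 to 141507448), the cyclic AMP phosphodiesterase of heart and smooth muscle, was at 0.754, 0.628 and 0.676 FPKM in Saline, 0.766, 0 and 0.118 in OVA and 0.92, 0.683, 0.719 and 0.19 in Herb. OVA replicate 1 was above all Saline libraries and OVA replicate 2 was listed at 0, so the listed OVA values were widely spread. The row held 29.5 to 277 estimated fragments in the other libraries, and whether the 0 is a failed estimate was not tested. The change in OVA vs. Saline was -0.43 ± 0.23 (limma adjusted p = 0.155), and -0.67 without OVA replicate 1 (adjusted p = 0.0206). The latter rests on that 0 and on the 0.118 FPKM of OVA replicate 3. After rescaling it was -0.10 ± 0.29 (limma adjusted p = 0.816). For Pde4d (chromosome 13), a PDE4 gene that is widely expressed, the table holds 1 row, NM_011056 (108654177 to 109951474), and its level was listed at 0 in all 10 libraries. An exact 0 here can be a failed estimate, since the housekeeping gene Gapdh was listed at 0 in 9 libraries and 3162 of the 18827 symbols with 1 row were at 0 throughout. No level or change of Pde4d is given.

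In OVA vs. Saline, 2 of the 8 members tested were called lower as deposited (Chrm2 and Pde4b), where 45.1% of all genes tested were, and 0 were called higher. After rescaling 3 members were called, Adrb1 and Pde4a higher and Pde4b lower, against 34.5% of all genes in either direction. With the libraries brought to a common sum over messenger RNA rows, 3 members were called higher, Adrb1 (1.05, limma adjusted p = 0.00619), Pde4a (0.87, limma adjusted p = 0.00279) and Chrm3 (0.39, limma adjusted p = 0.0303), where 35.9% of all genes were, and Pde4b was at -0.23 (limma adjusted p = 0.464). The median log2 fold change of the 8 members was -0.33 as deposited, beside -0.46 over all genes, and 0.12 rescaled, beside 0.07. The groups did not overlap for 2 members as deposited and for 3 rescaled, compared with 58.3% and 50.5% of all genes. Of single rows, 34.3% were called in either direction, and of the member rows NM_001177980 and the Chrm2 row were.

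In Herb vs. OVA, 1 member was called higher as deposited (Chrm2), against 30.3% of all genes, and 0 after rescaling, against 0.348%. On the rescaled values 1 member, Pde4a, had an unadjusted limma p under 0.05, as had 23.2% of all genes. The members' median was 0.22 as deposited, beside 0.33 over all genes, and -0.12 rescaled, beside 0. The groups did not overlap for 2 members as deposited (Chrm2 and Pde4b) and for 1 rescaled (Pde4a), compared with 41.1% and 19.6% of all genes, and 16.5% of single rows were called, of which 0 belonged to a member. In Herb vs. Saline, 2 members were called lower as deposited (Chrm2 and Pde4b), against 15.2% of all genes, and 0 rescaled, against 9.66%. Rescaled, 1 member, Pde4b, had an unadjusted limma p under 0.05, as had 4712 of all 16075 genes. The groups did not overlap for Chrm2 and Pde4b on both scales, compared with 36.5% of all genes as deposited and 34.9% rescaled, and 9.27% of single rows were called. These comparisons share libraries, so their values are not separate evidence.

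For both Herb comparisons the counts over all genes, beside which the members were read, rested on single libraries. In OVA vs. Saline they moved less. There 7804 genes were called as deposited, and 6732 to 7825 with 1 library left out. After rescaling the 5551 genes called became 3842 to 5387. In Herb vs. OVA, 4939 genes were called as deposited, 2314 without OVA replicate 1, and 3066 and 3169 without Herb replicates 1 and 2. The 56 genes called after rescaling became 575 without OVA replicate 2 and 31 to 36 without any Saline library or Herb replicate 1 or 2. The 3440 single rows became 64 without Herb replicate 1, 1263 without Herb replicate 2, 772 without OVA replicate 1 and 2021 without OVA replicate 3. In Herb vs. Saline, 2945 genes were called as deposited, 586 without Saline replicate 2, and 1202 to 1870 without either other Saline library or Herb replicate 1, 3 or 4. The 1553 genes called after rescaling became 45 without Saline replicate 2 and 254 to 450 without either other Saline library or Herb replicate 1, 3 or 4. The 1935 single rows became 251 without Saline replicate 2 and 570 to 1034 without the same other libraries.

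**Figure D4:**
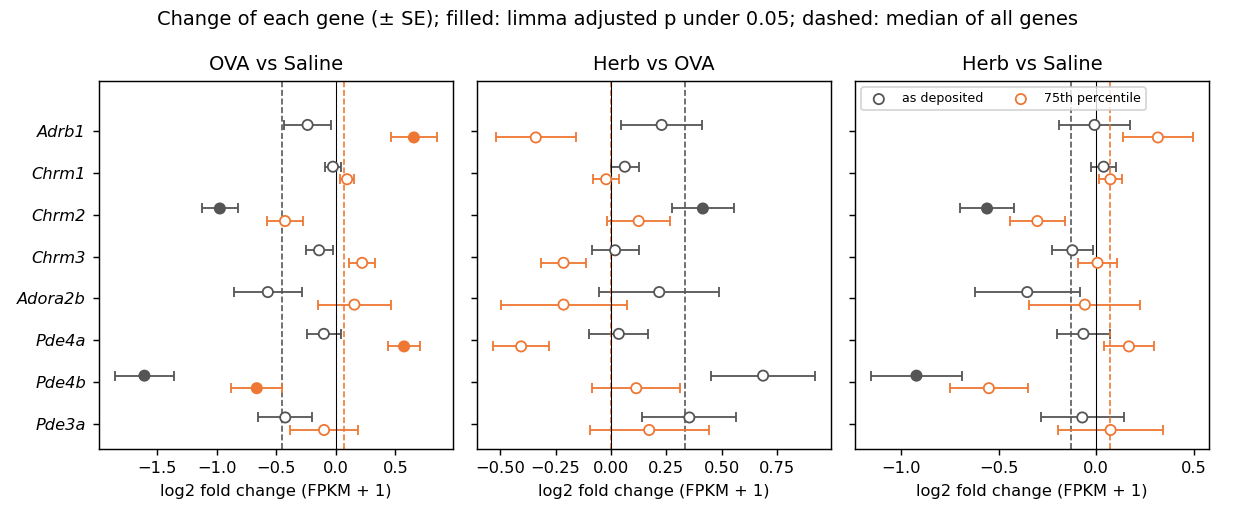
Log2 fold change (± SE, on log2(FPKM + 1)) of 8 target genes in 3 comparisons, from the values as deposited (grey) and rescaled to a common 75th percentile (orange). Filled points have a limma adjusted p under 0.05, and dashed lines mark the median of all genes, -0.46, 0.33 and -0.13 as deposited. In OVA vs. Saline the points of Adrb1, Chrm1, Chrm3, Adora2b and Pde4a change sign between the scales, and those of Chrm2, Pde4b and Pde3a stay negative.

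The balance within each class was followed as each gene's share of the summed FPKM of the receptor members or of the phosphodiesterase members, a measure free of the library scale. The phosphodiesterase sum took in the listed 0 of Pde4d in all libraries and of Pde3a in OVA replicate 2, which can be failed estimates. It left out phosphodiesterases that are not members. Pde4b made up 86.9% ± 3.04 of this sum in Saline, 71.6% ± 8.72 in OVA and 78.6% ± 1.97 in Herb. Pde4a made up 7.19, 8.75 and 12.3% in Saline, 25.1, 19.4 and 26.9% in OVA and 15.6, 13.7, 14.8 and 18.6% in Herb. The 3 groups of Pde4a shares did not overlap, and Herb lay between Saline and OVA. Shares within a class depend on each other, so the Pde4a share also rises where Pde4b falls. As deposited, mean Pde4a was 1.79, 1.58 and 1.65 FPKM in Saline, OVA and Herb, and mean Pde4b 17.2, 4.83 and 8.41. How often shares of other genes lie apart in this way was not tested. The exact permutation p was 0.1 in OVA vs. Saline and 0.057 in Herb vs. OVA and in Herb vs. Saline, the smallest possible, with an adjusted p of 0.343 over all 24 share tests. Among the receptors, Chrm2 made up 18.1% ± 5.19 in Saline, 7.43% ± 2.02 in OVA and 11.3% ± 1.59 in Herb, and Adrb1 49.0% ± 9.27, 61.2% ± 11.5 and 58.6% ± 6.84. The Chrm2 share was lower in all OVA and all Herb libraries than in all Saline libraries (exact permutation test, p = 0.1 and p = 0.057), and the Adrb1 shares overlapped between all groups. No share test could pass the threshold after adjustment.

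**Figure D5:**
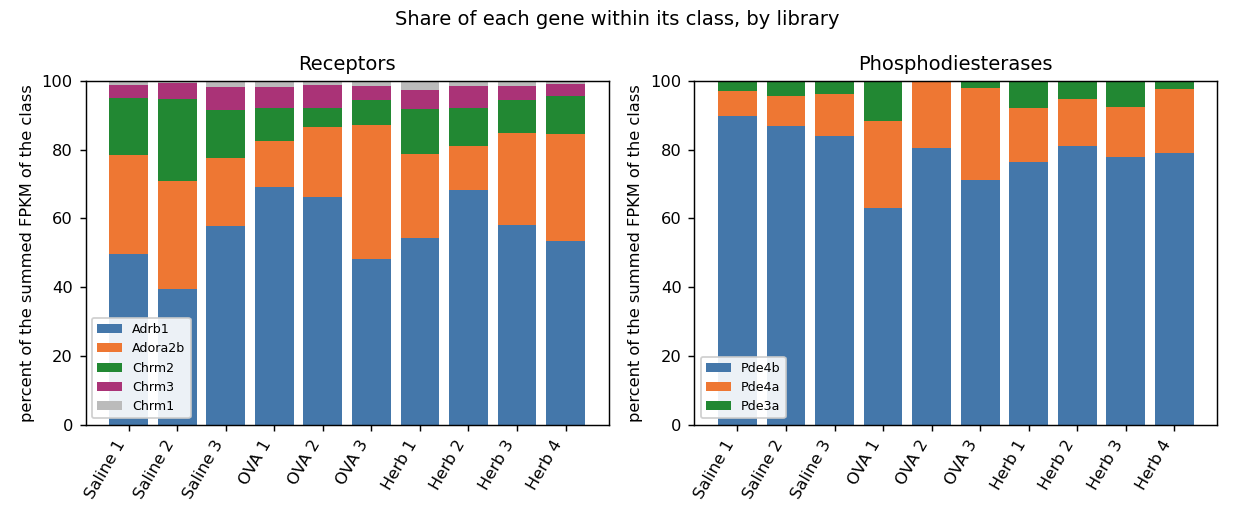
Share of each gene in the summed FPKM of the 5 receptor members (left) and of the phosphodiesterase members (right), in percent (vertical axis), with 1 stacked bar per library. Pde4a took 7.19% to 12.3% of the sum of the phosphodiesterase members in Saline, 19.4% to 26.9% in OVA and 13.7% to 18.6% in Herb, and Pde4b most of the rest. Pde4d enters at its listed 0.

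For the 5 members with a mean of at least 1 FPKM, which leaves out Chrm1, Chrm3 and Pde3a, the most similar genes over the 10 libraries were sought among 11204 genes on rescaled log2 values, as a description without a test. For Adrb1 they were Mir6981 (Pearson r = 0.975) and Myo1e (0.96), for Chrm2 D8Ertd738e (0.944) and Cyp27a1 (0.923), for Pde4a Pi4kb (0.963) and Thoc5 (0.961), for Pde4b Tceal1 (0.941) and Prkar1b (0.921, a regulatory subunit of protein kinase A), and for Adora2b Snora2b (0.928) and Mir5136 (0.918). Mir6981, Snora2b and Mir5136 are rows of small RNA genes, and the libraries were made from poly(A) RNA. What the values of these rows reflect was not tested. The libraries share their composition within a group.

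The members act within a wider pathway, for which 88 other symbols in 7 lists were followed. The table holds 86 of them and 77 were tested. Those not found, Grk2 and Grk3, are newer names of Adrbk1 and Adrbk2, which were found. As deposited in OVA vs. Saline, 6 (7.79%) were called higher, compared with 3.48% of all genes tested, and 41 (53.2%) lower, compared with 45.1%. In Herb vs. OVA 24 (31.2%) were called higher, compared with 30.3%, and 0 lower. In Herb vs. Saline 4 (5.19%) were called higher, compared with 3.12%, and 16 (20.8%) lower, compared with 15.2%. After rescaling the numbers in OVA vs. Saline were 17 (22.1%) higher and 15 (19.5%) lower, compared with 20% and 14.6% of all genes. In Herb vs. Saline they were 9 (11.7%) higher and 3 (3.9%) lower, compared with 5.54% and 4.12%. In Herb vs. OVA 0 were called after rescaling, where 19 of the 77 genes (24.7%) had an unadjusted p under 0.05, compared with 23.2% of all genes. The counts of the single lists are to be read against these shares of all genes, and nothing particular to a list is drawn from them.

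Of the other adrenergic, muscarinic and adenosine receptors, 8 of 12 were tested and 1 was called as deposited in OVA vs. Saline. This was Adra2a, the alpha-2A receptor that restrains noradrenaline release, which rose from 0.0911 ± 0.0923 to 1.23 ± 1.05 FPKM (0.92 ± 0.31, limma adjusted p = 0.0338). After rescaling Adra2a, Adora2a, a Gs-coupled adenosine receptor, and Adra1b were called higher and none lower.

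Of the other phosphodiesterases, 6 of 12 tested were called lower in OVA vs. Saline as deposited. Pde7b, specific for cyclic AMP, fell from 2.56 ± 1.15 to 0.185 ± 0.0842 FPKM and was the 1 gene of this list called lower after rescaling (-1.12 ± 0.27, limma adjusted p = 0.0127). Pde5a, which breaks down cyclic GMP, went from 8.01 ± 0.846 to 3.14 ± 1.44 FPKM (-1.18 ± 0.42, limma adjusted p = 0.0441 as deposited; rescaled -0.32, adjusted p = 0.59). Pde4c, of the same family as the PDE4 members, was called higher after rescaling (0.75 ± 0.20, limma adjusted p = 0.0176) and was at 0.05 as deposited (limma adjusted p = 0.819). Of 2 others called higher after rescaling, Pde3b (0.36 ± 0.10, limma adjusted p = 0.0208) was called lower as deposited, from 3.93 ± 0.334 to 2.61 ± 0.443 FPKM (-0.45 ± 0.13, limma adjusted p = 0.0198), so that its call turned with the scale.

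Of the G proteins and adenylyl cyclases, 9 of 15 were called lower and 1 higher as deposited, and 4 lower and 3 higher after rescaling. Gnai2, a Gi subunit, fell from 44.8 ± 10.5 to 8.87 ± 4.19 FPKM (-2.27 ± 0.36, limma adjusted p = 0.000765) and was called lower on both scales, as was the calcium-stimulated cyclase Adcy8, from 5.93 ± 1.85 to 0.973 ± 0.429 FPKM. Adcy7, a cyclase of blood cells, rose from 6.96 ± 0.776 to 9.47 ± 0.811 FPKM and by 1.35 ± 0.16 after rescaling (limma adjusted p = 0.00126). Of the cyclic AMP effectors, 10 of 12 were called lower as deposited and 3 after rescaling, with none higher. Prkacb, a catalytic subunit of protein kinase A, fell from 14.9 ± 0.935 to 4.18 ± 1.16 FPKM (rescaled -0.71 ± 0.14, limma adjusted p = 0.00555), and the anchoring protein Akap5 from 41.3 ± 3.53 to 7.37 ± 2.999 FPKM. Akap5 is also among the 6 alveolar type 1 markers, all of which were called lower as deposited and 5 after rescaling, with sums of 685 to 809 FPKM in Saline, 52.9 to 173 in OVA and 181 to 410 in Herb, and the part of these cells in its change was not tested.

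Of the genes that switch receptors off, 5 of 10 were called lower and 2 higher as deposited, and 1 lower and 4 higher after rescaling. Adrbk2, a receptor kinase, rose from 8.16 ± 0.813 to 10.2 ± 0.285 FPKM (rescaled 1.25 ± 0.13, limma adjusted p = 0.00113), and the arrestin Arrb2 from 3.49 ± 2.27 to 7.49 ± 0.299 FPKM (rescaled 1.90 ± 0.34, limma adjusted p = 0.00387). Rgs5, a regulator of G protein signalling known from pericytes, fell from 2.79 ± 1.01 to 0.235 ± 0.288 FPKM and was called lower on both scales. Of the Gq and calcium release genes, 4 of 10 were called lower and 2 higher as deposited, and none lower and 4 higher after rescaling, among them the kinase Prkcd, from 16.9 ± 0.828 to 28.8 ± 3.47 FPKM (rescaled 1.74 ± 0.17, limma adjusted p = 0.00102), and the phospholipase Plcb2 of blood cells, from 3.21 ± 0.399 to 5.58 ± 0.447 FPKM.

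Of the genes of transmitter synthesis and removal, 7 of 10 were called lower as deposited in OVA vs. Saline and 6 after rescaling, with none higher. Nt5e, the ecto-enzyme that makes the adenosine sensed by Adora2b, fell from 15.6 ± 1.83 to 1.74 ± 0.565 FPKM (rescaled -1.78 ± 0.17, limma adjusted p = 0.00086). The monoamine oxidases Maoa and Maob, which degrade noradrenaline and other amines, fell from 8.64 ± 1.00 to 1.59 ± 0.495 and from 9.14 ± 0.956 to 1.64 ± 0.691 FPKM and were called lower on both scales. In Herb mice Nt5e was at 4.28 ± 1.08 FPKM (n = 4), called higher than in OVA as deposited (0.95 ± 0.20, limma adjusted p = 0.012) but not rescaled, and called lower than in Saline on both scales. Slc6a2, the noradrenaline transporter, rose in Herb vs. OVA as deposited from 1.61 ± 0.689 to 6.90 ± 2.17 FPKM (1.59 ± 0.25, limma adjusted p = 0.00994), and was not called rescaled (1.14 ± 0.25, limma adjusted p = 0.0787). The 7 endothelial markers summed to 358 to 447 FPKM in Saline, 75.8 to 122 in OVA and 162 to 302 in Herb, with 4 of 7 called lower in OVA vs. Saline as deposited and 3 rescaled, and their part in these changes was not tested.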

How the data were processed

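RNA was extracted from lung (with Trizol per the labels and a NucleoSpin RNA kit per the methods of the study), and poly(A) libraries were sequenced on an Illumina instrument. The labels name the TruSeq RNA kit and the methods of the study a stranded one, so reads of overlapping antisense genes may not have been told apart. The authors trimmed reads with cutadapt 1.10, aligned them to mm10 with HISAT2, quantified transcripts with StringTie 1.3.3b and ballgown, and deposited 1 table of FPKM for 66548 transcript rows in 10 mice, of which 34943 rows have a symbol. The authors used edgeR 3.16.5, per the submitters' processing notes, for their own comparisons. FPKM are not counts, so no count model was used here.

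Rows were summed per symbol, giving 16075 gene sums with a mean of at least 0.1 FPKM. Groups came from the sample titles. Differences were tested with limma 3.58.1 (R 4.3.3; lmFit, then eBayes with trend) after log2 transformation of FPKM + 1. The 10 libraries entered a joint fit, with Benjamini-Hochberg adjustment over all gene sums, or over 20866 single rows, and were called at an adjusted p under 0.05. Alternatives were a pseudocount of 0.1, a minimum of 1 FPKM or none, rescaling to a common 75th percentile or messenger RNA sum, quantile normalization, 2 groups in the fit, a replicate block and leaving out each library. Two-sided exact permutation tests were used for shares. Depth was estimated from the values of low genes with 1 row, where FPKM times length steps by whole fragments: 41.7% to 50.6% of them lay within 0.1 of a whole number, compared with 20% if spread evenly. Estimated fragments cover counting error only. Positions are those of GENCODE vM21 and RefSeq GRCm38.p6, the assembly of mm10. The limma fit was tested on simulated data in which few genes changed and libraries did not differ in composition, unlike these libraries. The permutation code was checked on known answers. Rescaling and the depth estimate were not simulated. The members, lists and tests were chosen with earlier results of these data known. From each pathway list up to 3 called genes per comparison with the largest fold change were eligible to be named, and genes like a member are the 2 with the highest Pearson r.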

Additional observations from a re-analysis of the deposited data

Results flagged for a closer look

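Of 16 groups of Herb values examined, 1 held a library far from the others. The Pde4b row NM_001177981 was at 0.427, 0.438 and 0.499 FPKM in Herb replicates 1 to 3 and at 1.29 FPKM in Herb replicate 4, so that the gap to the nearest library was 0.916 of the range, above Dixon's 95% critical value for 4 samples. Chance alone flags about 1 in 20 groups.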

How the results depend on the processing

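Rescaled numbers not repeated here stand in the report. With quantile normalization 4733, 103 and 681 genes were called in OVA vs. Saline, Herb vs. OVA and Herb vs. Saline, 2 members in the first (Adrb1 and Chrm2) and 0 in both of the latter, and these changes turned: in OVA vs. Saline Adrb1 0.68, Chrm1 0.064, Chrm3 0.077, Pde4a 0.40 and Adora2b 0.038; in Herb vs. OVA Adrb1 -0.37, Chrm1 -0.045, Chrm3 -0.21, Pde4a -0.39 and Adora2b -0.20; in Herb vs. Saline Adrb1 0.31 and Pde4a 0.012. Rescaling to the 75th percentile left 56 genes in Herb vs. OVA and 1553 in Herb vs. Saline, 0 members in both, and turned in OVA vs. Saline Adrb1 0.65, Chrm1 0.094, Chrm3 0.22, Pde4a 0.57, Adora2b 0.16 and the rows NM_001112697 0.11, NM_001177983 0.057, NM_001177982 0.026 and NM_183408 0.43; in Herb vs. OVA Adrb1 -0.34, Chrm1 -0.022, Chrm3 -0.21, Pde4a -0.41, Adora2b -0.21, NM_001112697 -0.018 and NM_183408 -0.32; in Herb vs. Saline Adrb1 0.32, Chrm3 0.0064, Pde4a 0.17, Pde3a 0.073 and NM_183408 0.11. The messenger RNA sum gave 471 genes in Herb vs. OVA, 0 members in Herb vs. OVA and in Herb vs. Saline, and turned in OVA vs. Saline Adrb1 1.05, Chrm1 0.15, Chrm3 0.39, Pde4a 0.87, Pde3a 0.051 and Adora2b 0.49; in Herb vs. OVA Adrb1 -0.52, Chrm1 -0.054, Chrm3 -0.30, Pde4a -0.55, Pde4b -0.062 and Adora2b -0.35; in Herb vs. Saline Adrb1 0.54, Chrm3 0.084, Pde4a 0.32, Pde3a 0.16 and Adora2b 0.13. Summing all rows of a symbol turned NM_001177981 (-1.61) and NM_019798 (-0.10) in OVA vs. Saline, NM_001177983 (0.69) and NM_019798 (0.035) in Herb vs. OVA, and NM_001177982 and NM_001177981 (-0.92 each) and NM_019798 (-0.066) in Herb vs. Saline. In Herb vs. OVA 2 members were called with a pseudocount of 0.1 or 2 groups in the fit, and 0 without a filter. Rescaling moves all genes of a library together, and the cause was otherwise not tested.

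Same-numbered mice correlated with r from -0.0139 to 0.102 in their deviations, with 1 of 9 pairs over 0.1. Differently numbered mice gave r from -0.165 to 0.225, with 2 of 24 pairs over 0.1. The numbers were therefore not taken as pairs, though so few libraries cannot exclude a shared batch. With the replicate block 0 members were called in Herb vs. OVA and, of 1067 genes, 0 in Herb vs. Saline, and Adrb1 (0.013) and Pde3a (0.072) turned in Herb vs. Saline. With the block on rescaled values 1 member, Pde4a, was called in OVA vs. Saline (adjusted p = 0.0213), and Adrb1 (0.0775) and Pde4b (0.0623) were not.

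Leaving out each library in turn gave 2314 to 5034 genes and 0 to 2 members called in Herb vs. OVA, and 586 to 3330 genes and 0 to 2 members in Herb vs. Saline. Changes that turned ranged in OVA vs. Saline from -0.075 to 0.0097 (Chrm1) and -0.24 to 0.00037 (Pde4a); in Herb vs. OVA from -0.054 to 0.079 (Chrm3), -0.00021 to 0.076 (Pde4a), -0.016 to 0.47 (Adora2b) and -0.015 to 0.16 (NM_183408); in Herb vs. Saline from -0.16 to 0.070 (Adrb1), -0.013 to 0.072 (Chrm1), -0.20 to 0.036 (Pde4a), -0.16 to 0.072 (Pde3a) and -0.22 to 0.012 (NM_183408). Shares that turned ranged, in percentage points, in OVA vs. Saline from -0.043 to 1.43 (Chrm3), -2.67 to 3.18 (Pde3a) and -9.88 to 2.98 (Adora2b); in Herb vs. OVA from -9.13 to 1.46 (Adrb1), -0.097 to 0.47 (Chrm1), -1.12 to 4.73 (Pde3a) and -6.07 to 6.79 (Adora2b); in Herb vs. Saline from -0.98 to 0.50 (Chrm3) and -6.54 to 0.59 (Adora2b). Depth limits Chrm1, whose main row held 0 to 25.9 estimated fragments per library.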
